A study of Sus scrofa with 12 samples.

Results

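Mitochondrial ribosomal protein genes and cytosolic translation factor genes were followed in the livers of 12 adult German Landrace pigs profiled on a porcine expression array. The members were every probe set whose single annotated symbol began with MRPL, MRPS, EIF or EEF, apart from EIF1AY, and each gene was represented by its probe set with the highest mean signal over the 12 arrays. This gave 99 genes, 58 mitochondrial ribosomal proteins and 41 translation factors, out of 5810 genes with a tested probe set. The 99 genes had 140 probe sets among them, control probe sets left out, and another 12 probe sets that carried several symbols were not used. By name, 36 of the mitochondrial ribosomal proteins belong to the large subunit and 22 to the small subunit. The translation factors comprised 6 genes named for eIF1, eIF5 and eIF6, 5 for eIF2 and its partners, 4 for eIF2B, 9 for eIF3, 11 for eIF4 and 6 for elongation. All 99 representatives lay above the signal filter.

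The animals formed 4 groups of 3, each with 1 female and 2 males, from the crossing of low or high stress response with low or high aggressiveness. Groups are written with the stress response first, so that low-high means low stress response with high aggressiveness. No animal was treated in a way the labels describe, and how the 2 traits were scored is not given in the sources used here. Each animal gave 1 array of total liver RNA, so the spread is that between animals of a group with preparation error included. In whole liver, fewer cells of a type and less RNA per cell cannot be told apart.

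Mitochondria make a small set of membrane-bound respiratory subunits on their own ribosomes, whose RNAs are mitochondrial but whose proteins are all encoded in the nucleus, made in the cytosol and imported. In the cytosol, initiation factors bring the initiator tRNA, the ribosome and the capped mRNA together, and elongation factors then carry charged tRNAs to the ribosome. Liver is a tissue of high protein output, and phosphorylation of eIF2 and control of the cap-binding eIF4 complex are the textbook switches by which cells slow initiation under stress.

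Signals were on the scale of the scanner software and are comparable for 1 probe set across animals, not between probe sets. The 12 arrays had the same trimmed mean of 500.2, medians of 93.3 to 117.4 and pairwise correlations of 0.9449 to 0.9747. The lowest median correlations with the other arrays were 0.9527 for high-high 3 and 0.9567 for high-low 3, the latter close to 0.9572 for low-high 3 and 0.9583 for low-low 3. All 9 hepatocyte markers, albumin among them, gave strong signals, with summed levels of 296070.8 to 387630.9 at low and 320973.8 to 458920.4 at high aggressiveness. The muscle markers CKM, TNNT1 and MYL1 and the pancreas markers CPA1 and CLPS lay below the signal filter. The muscle marker MYH7, at a mean signal of 65.4, and amylase (AMY2) lay above it.

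Mean signals of the mitochondrial ribosomal proteins ran from 96.05 for MRPS36 to 4859.47 for MRPS17, with a median of 1669.4, and those of the translation factors from 117.81 for EIF4E to 31666.08 for EEF1B2, with a median of 2450.6. The median residual SD, the spread left after stress response, aggressiveness and sex, was 0.22 log2 units for the mitochondrial ribosomal proteins and 0.21 for the translation factors, against 0.30 over all 15999 probe sets tested, whose median signal of 249.2 was far lower. It was 0.18 for 57 cytosolic ribosomal proteins and 0.21 for 59 nuclear subunits of oxidative phosphorylation, and both of these families were brighter (median signals 28167.1 and 7951.1). Members of a class moved together only loosely. The mean correlation between pairs of members across the 12 animals was 0.11 for the mitochondrial ribosomal proteins and 0.059 for the translation factors, against 0.52 for the cytosolic ribosomal proteins, 0.30 for the oxidative phosphorylation subunits and 0.019 over all probe sets. These correlations depend on the array scale: with each array centred on its median they were 0.37, 0.13, 0.51, 0.52 and 0.022 in the same order.

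Within the mitochondrial ribosome, 53 of 58 members correlated positively over the 12 animals with the mean of the others of their class. MRPL18 (r = 0.87), MRPL58 (r = 0.83), which releases stalled peptides, MRPL43 (r = 0.80) and MRPS28 (r = 0.79) followed the class most closely. MRPS35 (r = -0.43) and MRPS17 (r = -0.32) ran against it. Among the translation factors 30 of 41 were positive, led by EIF2S1 (r = 0.86), the alpha subunit of eIF2 that carries the regulatory phosphorylation site. The lowest values were those of EIF3K (r = -0.73), an eIF3 subunit, and EEF1AKMT1 (r = -0.68), a lysine methyltransferase of eEF1A rather than a translation factor itself. The genes of this paragraph were named after their correlations were seen. These correlations were taken without centring the arrays, and no matching count over all probe sets is given. The counts are therefore no measure of coordination within a class.

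A class score, the mean over members of each gene's log2 deviation from its own 12-animal mean, was computed for each animal. For the mitochondrial ribosomal proteins the scores were -0.014, 0.083 and -0.025 in the low-low group, -0.068, 0.066 and -0.10 in low-high, 0.069, 0.081 and -0.026 in high-low, and -0.11, 0.041 and 0.0059 in high-high. Every group held scores on both sides of 0, and the groups overlapped. For the translation factors they were -0.047, -0.037 and 0.018 in low-low, -0.094, -0.040 and -0.020 in low-high, 0.0043, -0.049 and 0.15 in high-low, and 0.027, -0.038 and 0.13 in high-high. The highest scores came from high-low 3 and high-high 3. Their array medians, 114.3 and 108.3, were also high. The highest array median (117.4) was that of low-high 3, whose score of -0.020 was the highest of its group. Over the 12 arrays the translation factor score had r = 0.62 and rho = 0.50 with the array's median log2 signal. The mitochondrial ribosomal score had r = -0.60 and rho = -0.58. Without the 2 arrays farthest from the middle of that median, r was 0.72 and -0.44 in the same order. Within low aggressiveness r was 0.80 and -0.61, and within high aggressiveness 0.52 and -0.61. The part of the array scale in the scores was not tested. Group means of the mitochondrial ribosomal score were 0.015 ± 0.060 (SD, n = 3) for low-low, -0.035 ± 0.090 for low-high, 0.041 ± 0.058 for high-low and -0.021 ± 0.078 for high-high. The translation factor means were -0.022 ± 0.035, -0.051 ± 0.038, 0.035 ± 0.10 and 0.038 ± 0.083 in the same order.

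**Figure D1:**
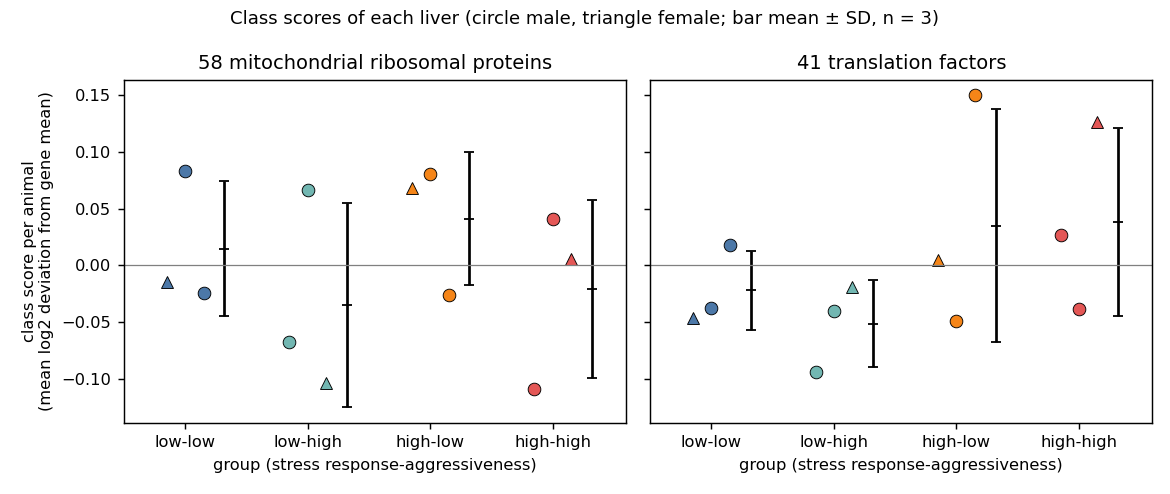
Class score of each liver (mean log2 deviation of the members from their 12-animal means) for the 58 mitochondrial ribosomal proteins and the 41 translation factors, by group; circles are males, triangles females, and bars give mean ± SD of 3 animals. The groups overlap in both classes, and the translation factor scores of high-low 3 (0.15) and high-high 3 (0.13) are the highest.

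High and low stress response were compared first, 6 livers against 6, in an additive model with aggressiveness and sex. No member of either class passed the test, and no probe set on the array did (0% of 15999 at an adjusted p under 0.05, limma with Benjamini-Hochberg adjustment). Mitochondrial ribosomal proteins were flat, with a median log2 fold change of 0.0074 and 33 members above and 25 below 0. Translation factors had a median of 0.041, with 27 above and 14 below. Over all probe sets tested the median was 0.028, with 44.3% below 0. At an unadjusted p under 0.05, limma singled out 1 of 58 mitochondrial ribosomal proteins and 4 of 41 translation factors, beside 8.16% of all probe sets; the shares were 1.72% and 9.76%. The count for the translation factors fell to 1 without low-low 1 or without low-high 3, and to 2 without low-high 2, high-low 3 or high-high 3. That for the mitochondrial ribosomal proteins was 0 to 2 when single animals were left out. Without both high-low 3 and high-high 3, the translation factor median was 0.022 with 18 of 41 below 0, and 2 members had an unadjusted p under 0.05 by limma beside 4.93% of all probe sets.

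**Figure D2:**
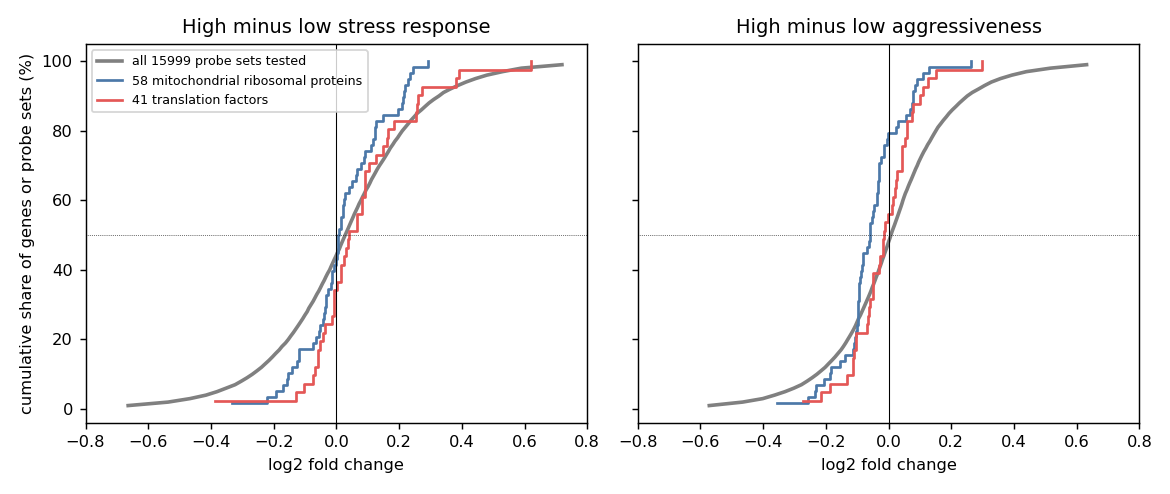
Cumulative share of genes or probe sets (%) against log2 fold change for high minus low stress response (left) and high minus low aggressiveness (right); grey is all 15999 tested probe sets, blue the 58 mitochondrial ribosomal proteins, red the 41 translation factors. The grey curve holds many more and dimmer probe sets, so the widths of the curves are not comparable; for aggressiveness the blue curve crosses 0 at 79.3%.

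The largest stress-related difference lay in the eIF4 group, which recognises and unwinds the capped end of the mRNA. EIF4A1, the RNA helicase of the complex, gave signals of 5163, 5154 and 3358 in the low-low livers, 3511, 5501 and 3506 in low-high, 6265, 5942 and 8378 in high-low, and 5944, 5784 and 7509 in high-high. All 6 livers with a high stress response lay above all 6 with a low one. The means were 6637 ± 1060 and 4366 ± 1003 (SD, n = 6), a log2 fold change of 0.62 ± 0.17 (SE). It had the smallest p of all members for stress response but did not pass over the whole array (limma, Benjamini-Hochberg adjusted p = 0.52). Without high-low 3 and high-high 3, its 2 highest livers, the log2 fold change was 0.49. EIF4A3, a related helicase that marks spliced mRNA in the exon junction complex, also separated without overlap, but narrowly. Its signals were 2066.57 to 2617 in the low and 2636 to 3491 in the high animals. The log2 fold change was 0.25 ± 0.12 (limma, unadjusted p = 0.0502, Benjamini-Hochberg adjusted p = 0.61). EIF4A2, the close paralogue of EIF4A1, showed 0.016 ± 0.14.

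EIF4B, which stimulates the helicase, ran the other way. Its signals were 3059, 3412 and 2969 in low-low, 2721, 2934 and 3720 in low-high, 1821, 2285 and 2904 in high-low and 2894, 2713 and 1921 in high-high. The ranges overlapped, but the 3 lowest livers all had a high stress response. The log2 fold change was -0.39 ± 0.15 (limma, Benjamini-Hochberg adjusted p = 0.57), and a second, dimmer EIF4B probe set gave -0.26 ± 0.15. In the 8 males alone it was -0.16. The remaining eIF4 genes stayed within 0.17 log2 units of 0: the scaffolds EIF4G1 (0.16 ± 0.11), EIF4G2 (0.15 ± 0.12) and EIF4G3 (-0.057 ± 0.13), EIF4H, another helicase partner (0.13 ± 0.12), the cap-binding EIF4E (-0.037 ± 0.19) and EIF4E2 (0.092 ± 0.12), and EIF4EBP2, a repressor of cap binding (0.023 ± 0.15). Of the 11 eIF4 genes 8 were above 0, with a median of 0.092.

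Of the 5 genes named for eIF2 and its partners, 4 were above 0 and the median was 0.26. None of them reached an unadjusted p under 0.05 by limma. The group was formed by name, and only EIF2S1 and EIF2S2 are subunits of eIF2, which loads the initiator tRNA. EIF2A showed 0.092 ± 0.13 and EIF2D -0.10 ± 0.14. EIF2S2, the beta subunit, read 1959, 1658 and 1929 in low-low, 1590, 1743 and 2185 in low-high, 2037, 1817 and 2292 in high-low and 2243, 2032 and 2936 in high-high. The ranges overlapped, with the top 3 livers all of high stress response. Its log2 fold change was 0.26 ± 0.12. EIF2S1 showed 0.26 ± 0.13, with its highest signals, 2881 and 3157, in high-low 3 and high-high 3. The eIF2 kinase EIF2AK2, which responds to double-stranded RNA, was dim and variable at 0.27 ± 0.31. The 4 members named for eIF2B, the factor that recharges eIF2 with GTP, had a median of 0.081. They ran from -0.0089 ± 0.11 for EIF2B2 to 0.18 ± 0.11 for EIF2B4. The subunit gene EIF2B5 was not among the members. The 9 members of eIF3, the scaffold on the small ribosomal subunit, had a median of 0.013 with 5 above and 4 below 0. Their values ran from -0.13 ± 0.17 for EIF3E to 0.16 ± 0.099 for EIF3B. The eIF1, eIF5 and eIF6 genes had a median of -0.0021, and no representative lay further than 0.067 from 0. For EIF1AX the representative gave -0.014 ± 0.15, and a second probe set of mean signal 537 gave -0.31 ± 0.15.

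Among the elongation genes, EEF1E1, a small scaffold protein of the complex of tRNA synthetases, and EEF1A1, which carries charged tRNA to the ribosome, were the most different. EEF1E1 gave 728, 825 and 951 in low-low, 708, 848 and 862 in low-high, 895, 864 and 1190 in high-low and 879, 1202 and 1518 in high-high. The ranges overlapped, and the 3 livers above 1000 all had a high stress response. The log2 fold change was 0.38 ± 0.16 (limma, Benjamini-Hochberg adjusted p = 0.58), 0.21 without high-low 3 and high-high 3, and a second probe set gave 0.16 ± 0.17. The subunits of the exchange factor that recycles eEF1A were near 0, at -0.060 ± 0.10 for EEF1B2, 0.038 ± 0.11 for EEF1D and 0.091 ± 0.10 for EEF1G.

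The EEF1A1 value rested on which probe set stood for the gene. The representative probe set had a mean signal of 2270 and a log2 fold change of 0.39 ± 0.16 (limma, Benjamini-Hochberg adjusted p = 0.57), but the other EEF1A1 probe sets gave -0.12 ± 0.11 and -0.20 ± 0.13. A probe set for the middle of the transcript, far brighter at 40517, was an array control and was not used. The 3 brightest non-control probe sets annotated with the older symbol EF1ALPHA, with mean signals of 45534, 39884 and 18354, gave 0.0033 ± 0.11, 0.059 ± 0.10 and -0.030 ± 0.10. eEF1A genes have near-identical copies, so the signal of a single EEF1A1 probe set is uncertain.

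**Figure D3:**
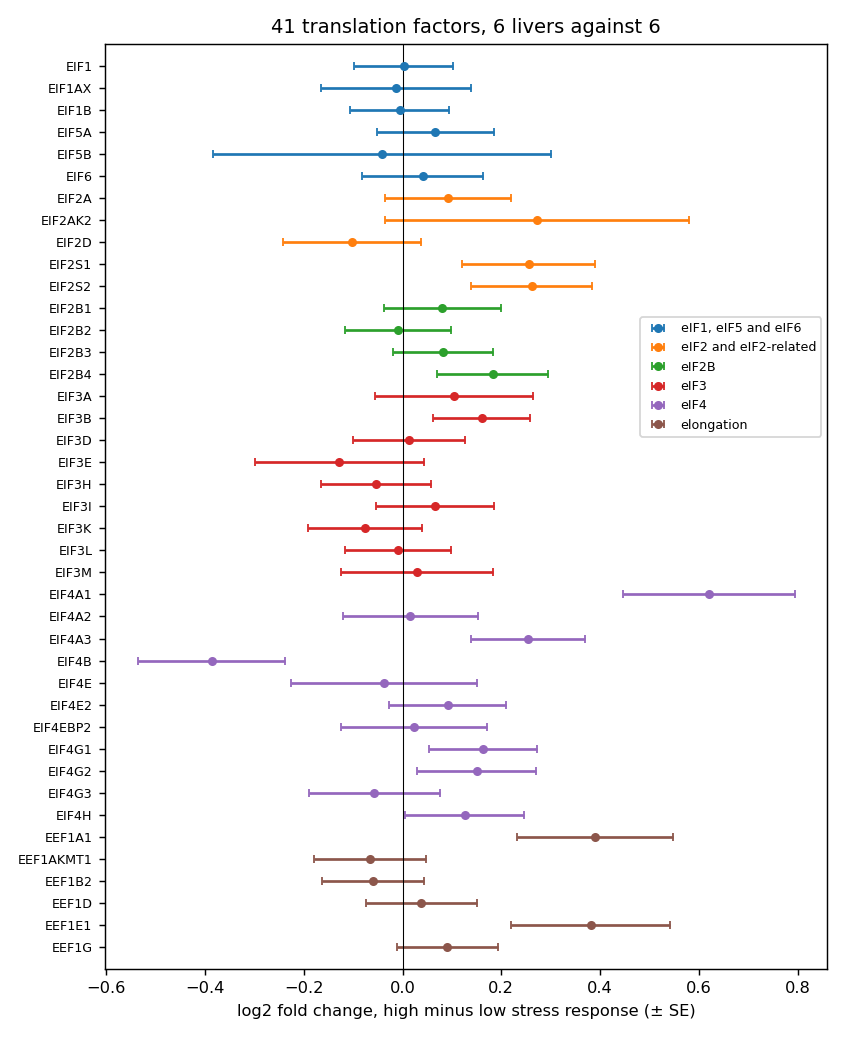
Log2 fold change for high minus low stress response, ± SE, of the 41 translation factors, coloured by family. EIF4A1 (0.62 ± 0.17) lies furthest above 0 and EIF4B (-0.39 ± 0.15) furthest below it, and no gene passed the adjusted test.

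In the mitochondrial ribosome the smallest p for stress response belonged to MRPL17, a large subunit protein with a bacterial counterpart. Its signals were 2245, 2288 and 2127 in low-low, 2297, 2096 and 2154 in low-high, 2821, 2343 and 2774 in high-low and 2532, 2500 and 2601 in high-high. Every liver with a high stress response was above every one with a low response. The means were 2595 ± 179 and 2201 ± 86.2 (SD, n = 6), a log2 fold change of 0.23 ± 0.099 (limma, Benjamini-Hochberg adjusted p = 0.58). Separation without overlap was found in 1 of 58 mitochondrial ribosomal proteins (MRPL17) and 2 of 41 translation factors (EIF4A1 and EIF4A3), beside 0.538% of all probe sets tested. Next came MRPL39 (0.23 ± 0.10), MRPL44 (-0.33 ± 0.17) and MRPS5 (0.24 ± 0.13), none with an unadjusted p under 0.05. The large subunit had a median of 0.012, with 22 of 36 members above 0, and the small subunit 0.0015, with 11 of 22. MRPS12, a protein of the decoding centre, had the highest small subunit value at 0.29 ± 0.18. For MRPL35 the representative gave 0.0030 ± 0.13 and a second, dim probe set of mean signal 110 gave 0.43 ± 0.14.

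**Figure D4:**
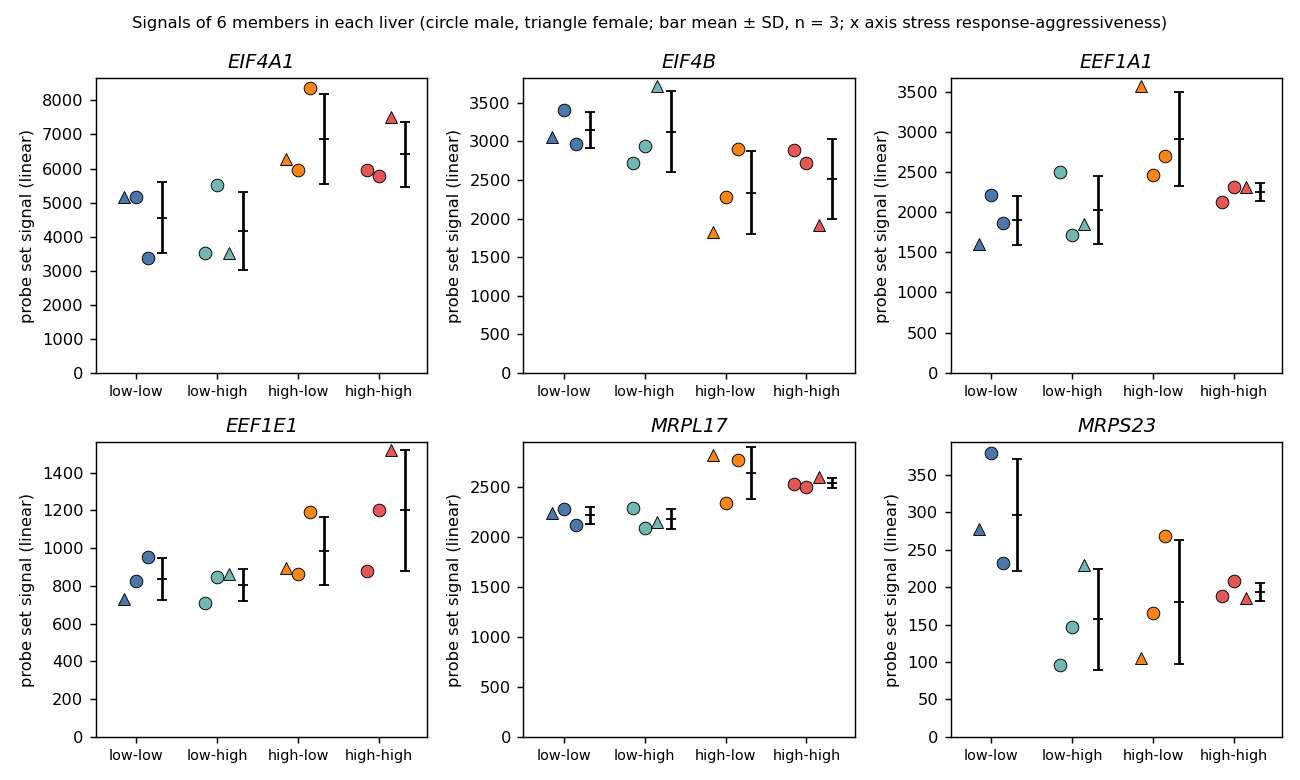
Probe set signal (linear, axis from 0) of EIF4A1, EIF4B, EEF1A1, EEF1E1, MRPL17 and MRPS23 in each liver by group; circles are males, triangles females, bars mean ± SD of 3 animals. EIF4A1 and MRPL17 separate high from low stress response without overlap, whereas the other 4 genes overlap.

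The class medians for stress response moved with the array scale, as did that of all probe sets. Quantile normalisation gave -5e-04 for the mitochondrial ribosomal proteins (29 of 58 below 0) and 0.056 for the translation factors (13 of 41 below 0), beside 0.0022 over all probe sets. Centring each array on its median gave -0.037 (37 below 0) and -0.0035 (21 below 0), beside -0.016 over all probe sets, which was 0.028 before centring. Under all 3 scalings the mitochondrial ribosomal median lay below that of all probe sets and the translation factor median above it. For the translation factors this order did not hold in the males alone. There their median lay below that of all probe sets, which was 0.048.

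Genes of the surrounding pathways showed no adjusted call for stress response either. Among cytosolic tRNA synthetases and their scaffolds, which charge tRNAs for the ribosome, 17 had a tested probe set, 14 were above 0, the median was 0.17 and 5 (29.4%) had an unadjusted p under 0.05 by limma, all higher, beside 8.16% of all probe sets. Without high-low 3 and high-high 3 the median was again 0.17, and 2 had such a p beside 4.93%. The count was 2 without low-low 2, low-high 3 or high-high 3, and 3 without low-low 1, low-high 1, high-low 1, high-low 3 or high-high 1. The 5 genes were FARSA, VARS, AIMP2, NARS and MARS; the last 3 were named after their values were seen. FARSA, a subunit of the phenylalanine enzyme, averaged 1566 ± 78.8 in the high and 1183 ± 116 in the low animals (SD, n = 6), a log2 fold change of 0.40 ± 0.11 (limma, Benjamini-Hochberg adjusted p = 0.52). VARS, the valine enzyme, showed 0.40 ± 0.14. The 5 mitochondrial synthetases measured had a median of -0.030 and no such gene.

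Of 12 measured genes of the response to eIF2 phosphorylation, 3 were higher and 1 lower at an unadjusted p under 0.05 by limma (33.3%, beside 8.16% of all probe sets). The list had no common direction, with a median of -0.019, 5 genes above 0 and 7 below. Without high-low 3 and high-high 3 there were 2 higher and 0 lower, beside 4.93%, with a median of 0.020; without single animals the median ran from -0.11 to 0.077. The transcription factor DDIT3 showed 0.56 ± 0.19, ATF4, whose translation rises when eIF2 is phosphorylated, 0.25 ± 0.10, and the cysteine-forming enzyme CTH 0.47 ± 0.15. The serine synthesis enzyme PSAT1 showed -0.58 ± 0.20. PSAT1 was named after its value was seen. In a list of 5 genes of signalling to translation, MKNK1, a kinase of eIF4E outside the mTOR pathway, showed -0.55 ± 0.16 (limma, Benjamini-Hochberg adjusted p = 0.52). The other 4, of mTOR signalling, had larger p-values than 0.05. TUFM (-0.26 ± 0.20), the mitochondrial elongation factor Tu, and MALSU1 (-0.25 ± 0.11), an assembly factor of the large mitochondrial subunit, led the 15 mitochondrial translation and assembly factors, whose median was 0.034 with no unadjusted call. The 4 mitochondrial ribosomal proteins with other names had a median of 0.018, from GADD45GIP1 (-0.20 ± 0.12) to DAP3 (0.090 ± 0.099). Of 5 mitochondrial transcription and biogenesis genes, SSBP1, the single-stranded DNA-binding protein, had the smallest p (0.31 ± 0.16). The 5 genes of termination, recycling and mRNA ends had a median of 0.018, with ABCF1 at 0.20 ± 0.11 and DHX29 at -0.29 ± 0.24. The cytosolic ribosomal proteins (median 0.0043) and the oxidative phosphorylation subunits (median -0.020) had medians near 0 as well.

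High and low aggressiveness were compared in the same model. Again no member and no probe set passed (0% at an adjusted p under 0.05, limma with Benjamini-Hochberg adjustment). None of the 99 members had an unadjusted p under 0.05 by limma, beside 3.22% of all probe sets, and none separated the 6 high from the 6 low animals, beside 0.0875% of all probe sets. Mitochondrial ribosomal proteins were nevertheless mostly a little lower at high aggressiveness. Their median log2 fold change was -0.059, with 46 of 58 (79.3%) below 0, where the median over all probe sets was 0.0075 with 48% below 0. In the large subunit 32 of 36 were below 0, with a median of -0.076, and in the small subunit 14 of 22, with -0.030; the difference between subunits was not tested. The count of 46 was the same after quantile normalisation and after centring each array on its median. Translation factors had a median of -0.013 with 23 of 41 below 0. The cytosolic ribosomal proteins had a median of 0.020 with 16 of 57 below 0, and the oxidative phosphorylation subunits 0.0044 with 29 of 59.

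MRPS5, a small subunit protein near the mRNA entry, had the smallest p for aggressiveness. It read 413, 433 and 451 in low-low, 326, 415 and 271 in low-high, 430, 466 and 538 in high-low and 381, 418 and 495 in high-high. The ranges overlapped, and the 3 lowest livers were all highly aggressive. The log2 fold change was -0.26 ± 0.13 (limma, Benjamini-Hochberg adjusted p = 0.9999). MRPL13 (-0.19 ± 0.11) and MRPS30 (-0.23 ± 0.14), which structures place in the large subunit despite its name, were next below 0. MRPL44, a large subunit protein with a ribonuclease-like fold, was at 0.26 ± 0.17. Of the translation factors, EIF3E showed -0.27 ± 0.17, EIF4E -0.21 ± 0.19, EIF2B3 -0.11 ± 0.10 and EIF4G1 0.15 ± 0.11. Of 9 eIF3 subunits 7 were below 0, with a median of -0.058. For EIF3M the representative gave -0.11 ± 0.15. A second, dim EIF3M probe set of mean signal 163 gave -0.40 ± 0.14 (limma, unadjusted p = 0.014). The cytosolic ribosomal proteins held 1 gene, lower, with an unadjusted p under 0.05 for aggressiveness by limma (1.75%, beside 3.22% of all probe sets). Neither the oxidative phosphorylation subunits nor the 8 other pathway lists held one. Of the mitochondrial translation and assembly factors, GFM1 (-0.14 ± 0.12), a mitochondrial elongation factor, and OXA1L (0.17 ± 0.14), the inner-membrane insertase, had the smallest p.

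A control ratio that depends on RNA integrity and labelling moved with aggressiveness and with the mitochondrial ribosomal score. For EF1A, a control transcript with probe sets at both ends, the 3' over 5' signal on the log2 scale was 0.89 ± 0.088 in the 6 highly aggressive and 0.72 ± 0.026 in the 6 less aggressive livers (SD), with the lowest of the former, 0.7574, above the highest of the latter, 0.7484. An exact two-sided permutation test gave p = 0.0022 (adjusted p = 0.017 over 8 tests of control ratios against both traits). The ratios of GAPDH, actin and the mean of all 3 did not differ at this threshold, with exact permutation p of at least 0.2273. The actin ratio was 5.10 ± 0.24 at high and 5.07 ± 0.33 at low aggressiveness (SD), and that of GAPDH 0.83 ± 0.16 and 0.785 ± 0.12. Actin thus had the highest level and the widest spread of the 3 ratios in that mean. The lowest mitochondrial ribosomal scores, in high-high 1 and low-high 3, came from the livers with the highest EF1A ratios, 0.96 and 0.99. Over the 12 animals the score and the ratio had r = -0.65 and rho = -0.62, given as a description of values from the same arrays. Without the 2 animals farthest from the median ratio r was -0.26, within low aggressiveness -0.18 and within high aggressiveness -0.71. The translation factor score had r = 0.17 with the ratio.

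With the EF1A ratio as a covariate the mitochondrial ribosomal median for aggressiveness became 0.093, with 17 of 58 members below 0, while the median over all probe sets became -0.076. With the mean of the 3 ratios as a covariate it was -0.027, with 35 below 0, beside -0.0074 over all probe sets. Because the EF1A ratio separates the aggressiveness levels completely, the ratio and the trait cannot be told apart in these animals. Leaving out high-high 1 gave a median of -0.034 with 38 below 0, beside 6e-04 over all probe sets, and leaving out low-high 3 gave -0.042 with 40 below 0, beside -0.0044. In the 8 males alone the median was -0.026 with 40 below 0, beside -0.022 over all probe sets, so that the class lay close to the whole array. Hepatocyte markers were above 0 in 9 of 9 cases for aggressiveness, with a median of 0.15. The cholangiocyte markers KRT19, EPCAM and SPP1 were below 0 in 3 of 3, with a median of -0.46. Of these KRT19 was dim, at a mean signal of 57, and SPP1 varied widely between livers, from 365 to 3297. The part of cell composition in the ribosomal values was not tested.

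**Figure D5:**
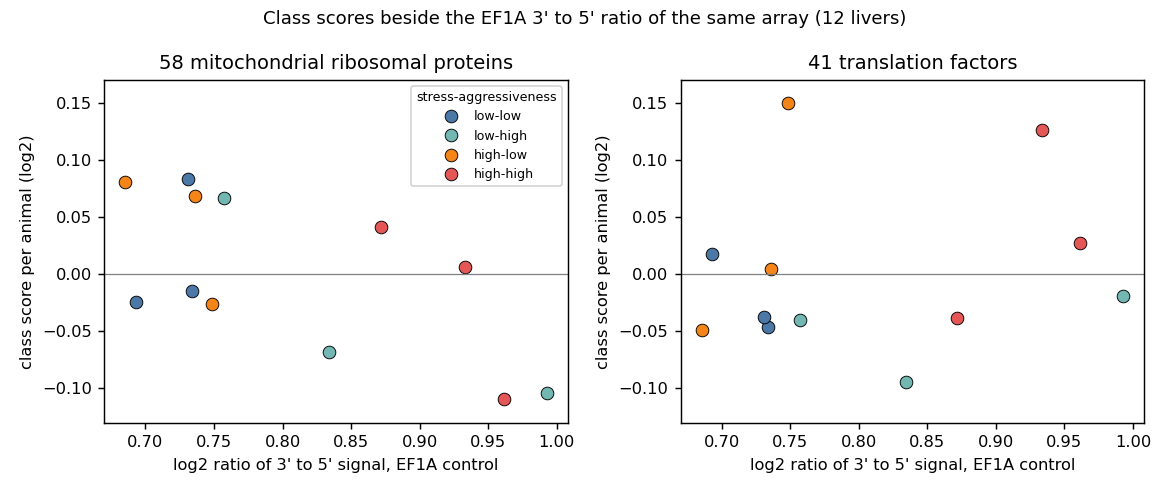
Class score of each liver (log2) against the log2 ratio of 3' to 5' signal of the EF1A control on the same array, for both classes, coloured by group. High-aggressiveness livers lie to the right of all low-aggressiveness livers, and the lowest mitochondrial ribosomal scores, -0.10 and -0.11, sit at the highest ratios.

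Whether the stress difference depended on aggressiveness was asked with an interaction term, the stress effect at high minus that at low aggressiveness. No member and no probe set passed (0% adjusted), and no member had an unadjusted p under 0.05 by limma, beside 3.87% of all probe sets. The medians were -0.018 for mitochondrial ribosomal proteins and 0.042 for translation factors, against -0.0045 over all probe sets. Of the mitochondrial ribosomal proteins 33 of 58 were below 0, and 19 of 58 after centring each array on its median, where the median over all probe sets was 0.070.

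MRPS23, a small subunit protein measured at low signal, had the smallest interaction p. It read 278, 379 and 232 in low-low, 95.9, 146 and 229 in low-high, 105, 165 and 269 in high-low and 188, 208 and 186 in high-high. The low-low livers were highest on average, and high-low 3 (269) fell within their range. The interaction was 1.09 ± 0.50 (limma, Benjamini-Hochberg adjusted p = 0.9993). MRPS12 showed -0.54 ± 0.35, MRPS22 0.36 ± 0.26, MRPS25 -0.35 ± 0.27, EIF3I -0.36 ± 0.23, EEF1A1 -0.43 ± 0.30, EIF3L -0.26 ± 0.21 and EIF3B -0.23 ± 0.20.

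The 4 groups were then compared directly. A moderated F test over the 4 means called no member and no probe set (0% adjusted), and at an unadjusted p under 0.05 it held 0 of 58 mitochondrial ribosomal proteins and 1 of 41 translation factors, beside 4.69% of all probe sets. The 1 was EIF4A1 (limma, Benjamini-Hochberg adjusted p = 0.9999). EEF1A1 and MRPS5 came next in that fit.

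At low aggressiveness, high against low stress response (high-low minus low-low) gave medians of 0.033 for the mitochondrial ribosomal proteins and 0.069 for the translation factors, with 0.033 over all probe sets. No probe set passed (0% adjusted), and 1 and 2 members had an unadjusted p under 0.05 by limma, beside 5.12% of all. The genes were MRPS12 (0.56 ± 0.25), EEF1A1 (0.61 ± 0.21) and EIF4A1 (0.60 ± 0.26). At high aggressiveness (high-high minus low-high) the medians were 0.012 and 0.084, with 0.019 overall. Here 0% passed the adjusted test, and 0 and 2 members had an unadjusted p under 0.05 by limma beside 6.13%. The genes were EIF4A1 (0.64 ± 0.26) and EEF1E1 (0.54 ± 0.23). The EIF4A1 values at the 2 levels of aggressiveness differed by 0.042 ± 0.36 (SE).

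Aggressiveness at low stress response (low-high minus low-low) gave -0.029 and -0.020, with 0.0093 over all probe sets; 0% passed, and 1 and 0 members had an unadjusted p under 0.05 by limma beside 3.19%. The gene was MRPS23 (-0.90 ± 0.35). At high stress response (high-high minus high-low) the mitochondrial ribosomal median was -0.067 with 41 of 58 below 0, the translation factor median 0.015 and that of all probe sets 0.0066. Only 2 probe sets passed there (0.0125%), neither a member, and 0 members of either class had an unadjusted p under 0.05 by limma beside 3.63%.

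For the diagonal pairs, high-high minus low-low gave -0.047 for the mitochondrial ribosomal proteins and 0.030 for the translation factors, with 0.038 over all; 0% passed, and 0 members had an unadjusted p under 0.05 by limma beside 5.8%. High-low minus low-high gave the highest mitochondrial ribosomal median of the 6 pairs, 0.085 with 43 of 58 above 0, and 0.060 for the translation factors with 29 of 41 above 0, against 0.015 over all probe sets. There 0% passed, and 2 members of each class had an unadjusted p under 0.05 by limma beside 4.3%. They were MRPS5 (0.50 ± 0.19) and MRPL44 (-0.60 ± 0.26), and EIF4A1 (0.73 ± 0.26) and EEF1A1 (0.52 ± 0.21). The 6 pairs share groups, so their values are not independent of each other.

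Sex was fitted as a term because EIF1AX, a start-codon selection factor, is X-linked. It read 400.7 to 596 in the 8 males and 564 to 828 in the 4 females, a male minus female log2 difference of -0.51 ± 0.16. The ranges overlapped slightly, and the difference did not pass (limma, Benjamini-Hochberg adjusted p = 0.85). MRPL44 was also lower in males (764 ± 216 against 997 ± 87.3, SD; -0.42 ± 0.19), with the smallest mitochondrial ribosomal p. MRPL13 (0.25 ± 0.12) and EIF2S2 (-0.24 ± 0.13) followed. For sex, 0.0688% of probe sets passed the adjusted test, no member among them, and 1 member of each class had an unadjusted p under 0.05 by limma beside 5.21%. The class medians were 0.017 and -0.019, against -0.040 over all probe sets.

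The widest spread between animals was found in dim probe sets. Over the 12 animals the SD of log2 signal was 0.59 for EIF5B, which joins the ribosomal subunits, 0.56 for EIF2AK2 and 0.52 for MRPS23, all with mean signals under 210. EIF4A1 at 0.42, MRPL44 at 0.40 and MRPL50 at 0.38 were the most variable of the brighter members. MRPS36, now known as a component of the 2-oxoglutarate dehydrogenase complex rather than of the ribosome, had the lowest signal, 57.2 to 135, and showed -0.12 ± 0.19 for stress response. The array held 41 further probe sets for 30 of the genes, and 35 of them, for 27 genes, were tested. These had the sign of the representative in 22 of 35 cases for stress response and 22 of 35 for aggressiveness.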

How the data were processed

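Signal intensities were deposited by the authors as 1 linear value per probe set and array, made with GCOS 1.1.1 per the submitters' processing notes; the trimmed mean (2% from each end) of 500.2 on every array shows scaling to a common target. No per-probe depth exists, so the number of arrays limits precision. From these values log2(signal + 16) was computed, 124 control probe sets and the 33.3% with the lowest mean were left out (lowest mean signal tested 40.58), and 15999 probe sets were tested with limma 3.58.1 in R 4.3.3, with Benjamini-Hochberg adjustment over all of them and a threshold of 0.05. An additive fit held stress response, aggressiveness and sex (8 residual degrees of freedom); a second fit held 4 group means and sex (7). Log2 fold changes understate changes of dim probe sets. Of 24123 probe sets, 10099 had 1 symbol, 198 several and 13826 none in the platform annotation, which can be old. Replicate numbers follow the order of deposit and do not pair animals.

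Named members were those with the smallest p per class and comparison (4, or 2 for sex), the 3 with the highest and lowest mean and largest SD, and a list of 49 well-known genes, of which 33 had a value; pathway lists named the 2 genes with the smallest p for each trait. The members and lists were chosen with earlier results of these data known, so no p is given for a class or list. Code was tested on simulated data. In all, 26 alternatives were run. Figures were drawn with matplotlib 3.10.9. No sequences are printed, and no genome coordinates were used here.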

Additional observations from a re-analysis of the deposited data

Results flagged for a closer look

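In sets of 6 animals sharing a trait level, 52 genes and scores were examined for a single animal far from the other 5 (Dixon's test of the gap against the whole range). Of 208 sets, 9 held one, and chance alone flags about 1 in 20. At low stress response, low-high 3 was lowest for EIF4A3 (2066.57, next 2434) and for EIF4H (2586.07, next 3233). At low aggressiveness, high-low 3 was highest for EIF2S1 (2881.01, next 2293), for EIF4A3 (3067.49, next 2648) and for the score of the translation factors (0.1498, next 0.018). In the same set high-low 1 was lowest for EIF5B (79.04, next 206) and highest for EIF2B2 (1454.96, next 1207). At high aggressiveness, high-high 1 was lowest for MRPL44 (477.08, next 929) and high-high 3 highest for EIF4G2 (10096.6, next 7612). By animal, 3 of the 9 fell on high-low 3, 2 each on low-high 3 and high-low 1, and 1 each on high-high 1 and high-high 3. A single mitochondrial ribosomal protein, MRPL44, was among them.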

How the results depend on the processing

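No member passed the adjusted test in any comparison under any of the 26 alternatives run. Class medians moved by less than the residual SD of the class score (0.0722 and 0.0702) in 504 of 516 cases, but that SD exceeds most of the medians themselves, so this is no measure of stability. The sign changed in 56 of the 516 cases, for stress response in 8 of 26 for the mitochondrial ribosomal proteins and 1 for the translation factors, and for aggressiveness in 1 and 2. The 12 medians that moved further follow. With the EF1A ratio as a covariate, the mitochondrial ribosomal median was 0.0927 for aggressiveness, 0.107 for low-high minus low-low, 0.0805 for high-high minus high-low, 0.1667 for high-high minus low-low and -0.0521 for high-low minus low-high and the translation factor median for high-high minus high-low was -0.0976. With each array centred on its median, the mitochondrial ribosomal medians were 0.0561 for the interaction and -0.0487 for high-low minus low-low, and those of the translation factors 0.1163 and -0.0122. The interaction median of the translation factors was -0.0657 in males only and -0.004 to 0.1122 without single animals, highest without high-high 2. The cause of these shifts was not tested. Centring moved the median over all probe sets for the interaction from -0.0045 to 0.0699 and for high-low minus low-low from 0.0329 to -0.0485, and for sex it left 10 of 58 mitochondrial ribosomal proteins and 10 of 41 translation factors below 0, from 24 and 26. Counts at an unadjusted p under 0.05 moved by over 1.5 times in 178 of 568 cases, where the counts are small. Of single genes, MRPS5 for aggressiveness turned to 0.0023 with the EF1A ratio as a covariate. The EEF1A1 value for stress response fell to 0.0226 with the mean over its probe sets. Scanner files were not used here, so the background correction could not be varied.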
